A study of Bos taurus with 8 samples.

Results

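HOX genes and the PAX, LHX, DLX, sine oculis, TBX, MEIS, PBX and FOX genes encode transcription factors that pattern the embryo. They were examined in somatic cells (SCs) of cattle and in stem-like cells derived from bovine embryos (eSLCs). A gene was a member if its current RefSeq symbol was HOXA, HOXB, HOXC or HOXD with a number, one of the other family names with a number, or FOX with 1 letter and a number. Of 132 such genes in the RefSeq table, 74 had a probe named through its accession, among 12603 named genes in all. They were 21 HOX, 20 FOX, 7 LHX, 7 TBX, 5 DLX, 4 sine oculis (SIX2, SIX3, SIX5 and SIX6), 4 PBX, 3 PAX and 3 MEIS genes.

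RNA of 8 samples from HanWoo, a Korean native cattle breed, was hybridized with Cy3 to 1 bovine oligo microarray each. The eSLCs were the lines I2 (passage 35) and I9 (passage 30) from in vitro produced (IVP) embryos, N2 (passage 36) and N7 (passage 30) from nuclear transfer (NT) embryos made with donor cells of ear skin, and P1 (passage 31) and P4 (passage 36) from parthenogenetic (PA) embryos. All eSLCs were kept in 3i medium, which holds inhibitors of MEK, the FGF receptor and GSK3, on inactivated mouse STO feeder cells. The SCs were grown in serum medium without inhibitors and were sampled at passages 5 and 10 (SC P5 and SC P10), so the medium and the passage number differ between eSLCs and SCs and cannot be told apart from cell type. The labels give neither the tissue of the SCs nor whether the passages are separate cultures, and p-values then measure the spread between these arrays, which may be technical. Each origin is represented by 2 lines and the SCs by 2 arrays, and this number of arrays limits the precision.

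The HOX genes lie in the clusters HOXA, HOXB, HOXC and HOXD. Genes of low number (the anterior paralogs) act towards the head and those of high number (the posterior paralogs) towards the tail, and cells of the adult body retain part of this code according to where they came from. Proteins of the MEIS and PBX families bind DNA together with HOX proteins. PAX, LHX, DLX, sine oculis and TBX factors specify organs and regions such as the neural crest, the limbs, the pituitary and the placenta, and FOX factors act in endoderm, in mesenchyme and in the response to growth factors.

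Signals are given as the background-subtracted intensity scaled so that the 75th percentile of each array is 1000. Between 71.2 and 76.7% of the spots of an array were well above background by the scanner software's flag, called detected here. The 2 SC arrays carried fibroblast markers: 9 of 9 fibroblast markers were detected on both, with a summed signal of 507218 and 606453, against 5478 to 10750 on the eSLC arrays. The eSLC arrays carried trophectoderm markers, with 9 of the 9 that had a probe detected on all 6 and a summed signal of 374168 to 1136942, against 13035 and 13271 on the SC arrays, where CDX2, ELF5 and PAG2 were not detected. N7 lay above the other 5 lines in 4 of 7 endoderm markers, among them HNF4A (9022 against 8.17 to 23.4), GATA4 (2918 against 23.1 to 179.8) and APOA1 (112600 against 1097 to 6823). SOX17 was within their range in N7 (2664), and AFP and TTR were below it (15.9 and 22.2). The part of these cell type differences in the results was not tested, and in such bulk RNA fewer cells of a type and less RNA per cell cannot be told apart.

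Of the 74 members, 40 were detected by at least 1 of their probes on all 8 arrays and 11 on none. HOXA5, HOXA9, HOXB4, DLX4 and FOXL2 were detected by any probe on all 6 eSLC arrays and on neither SC array. FOXP2 was detected on both SC arrays and on no eSLC array. For HOXB2 and DLX1 the probes disagreed. The brightest HOXB2 probe was detected on the 6 eSLC arrays alone and the brightest DLX1 probe on the 2 SC arrays alone, while a weaker probe of each was detected on all 8 arrays. The other 17 were detected on some arrays. The undetected members were HOXC5, HOXC11, HOXC12, HOXD11, LHX4, LHX5, LHX6, LHX9, TBX5, FOXN4 and FOXP3.

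In the comparison of all eSLCs with SCs, which used the brightest probe of each gene, 57 members were detected on every array of at least 1 group and were tested, with 10958 genes in all. A gene was called at an adjusted p under 0.05 (limma, Benjamini-Hochberg over all 10958) and a difference of at least 2-fold. By this rule 18 members were higher and 12 lower in eSLCs, while 19.7% of all genes tested were called higher and 15.7% lower. The median difference of the tested members was 0.37 on the log2 scale and that of all genes 0.23. The HOX genes stood on the higher side, with 8 of 15 tested called higher and 1 called lower and a median of 1.84. Part of this is set by the filter. HOXA5, HOXA9, HOXB1, HOXB2, HOXB3, HOXB4, HOXB7 and HOXD10 passed it through eSLC groups alone, which favours the higher side. Among the 7 HOX genes detected by the brightest probe on all 8 arrays, 5 were called higher and 1 lower. The other 8 families were divided, with 10 of 42 called higher and 11 lower and a median of 0.21. All 6 eSLC arrays lay above both SC arrays for 21 members, as for 34.0% of all genes, and below both for 13, as for 23.6% of all genes. Of the HOX genes 9 lay above and 1 below. Without SC P5 the calls fell to 14 higher and 7 lower, and without SC P10 to 14 and 8, and in both cases the HOX calls to 5 higher and 0 lower. In these refits, here and below, the lone SC array is assumed to vary like the other groups. The log2 differences of the members given below that then lost their call moved by at most 0.35, apart from HOXC13 (1.33 without SC P5 and 2.70 without SC P10). Without N7 they were 20 and 12.

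**Figure D1:**
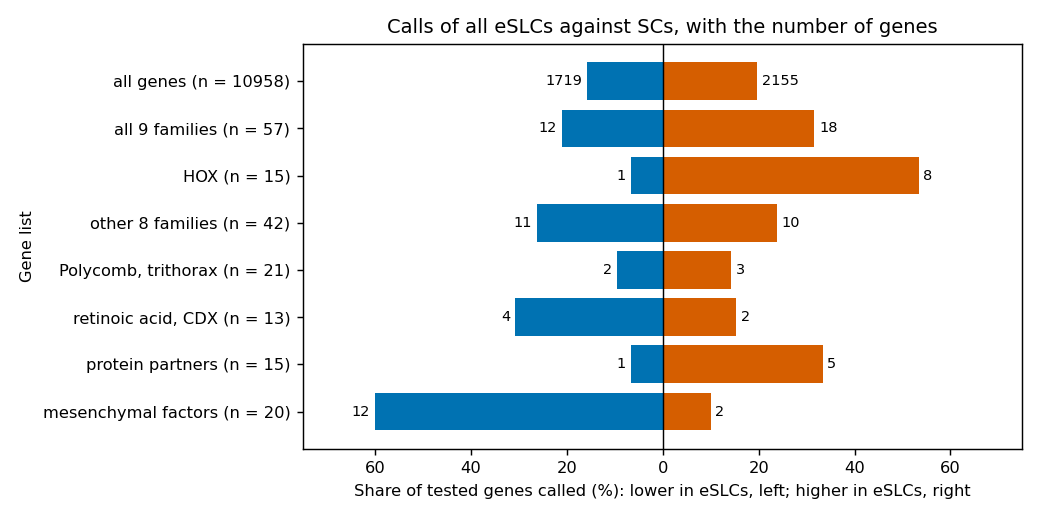
Share of the tested genes of each list (percent, with the number of genes beside each bar) called lower (left) or higher (right) in eSLCs than in SCs by limma. HOX genes lie mostly to the right (8 higher, 1 lower), and the mesenchymal factors mostly to the left (2 higher, 12 lower).

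Of 39 HOX genes in the RefSeq table, 21 had a named probe, and the others could not be examined. HOXA2, HOXA3, HOXA4, HOXB2, HOXB9, HOXC4, HOXC13 and HOXD4 were detected by at least 1 probe on both SC arrays, 8 of 21 members (HOXB2 by its weaker probe alone), and HOXB1 and HOXB7 on SC P5 alone. In eSLCs 12 of 21 were detected on all 6 arrays. No HOX gene was detected on both SC arrays and undetected in the eSLCs. By paralog number, 2 of 5 tested anterior genes (1 to 3) were called higher in eSLCs and 1 lower, 4 of 6 central genes (4 to 8) were called higher and 0 lower, and 2 of 4 posterior genes (9 to 13) were called higher and 0 lower. Of all genes tested, 19.7% were called higher and 15.7% lower. The anterior HOXB1, HOXB2 and HOXB3, the central HOXA5, HOXB4 and HOXB7 and the posterior HOXA9 and HOXD10 passed the filter through eSLC groups alone. That favours calls on the higher side in each paralog group.

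The paralogs of group 4, which act in the hindbrain and neck region, gave 3 of these calls. HOXD4 had signals of 1142 and 531 in the IVP lines I2 and I9, 474 and 439 in the NT lines N2 and N7, 2000 and 1010 in the PA lines P1 and P4, and 18.5 and 17.5 on the SC arrays. All 6 eSLC arrays lay far above both SC arrays, and the difference was 5.47 ± 0.38 on the log2 scale (SE, limma, adjusted p = 0.000153), with 1.79 for its weaker second probe. The signal of HOXB4 was 407 and 389 in I2 and I9, 438 and 289 in N2 and N7, 385 and 427 in P1 and P4, and not well above background on either SC array (4.92 and 6.49). It was at least 45.8-fold higher in eSLCs (limma adjusted p = 2.06e-05), and its other 2 probes differed by 2.52 and 3.33 on the log2 scale, in the same direction. Such bounds set the eSLC mean against the higher, on each SC array, of the probe's own signal and the lowest one well above background. HOXA4 gave 261 and 544 in I2 and I9, 751 and 512 in N2 and N7, 235 and 252 in P1 and P4, and 19.6 and 23.2 on the SC arrays, a difference of 4.17 ± 0.32 (SE, limma, adjusted p = 0.000228). HOXC4, the remaining paralog, had 36.2 to 58.5 in eSLCs (median 48.1) and 33.8 and 37.4 in SCs. The ranges overlapped, and the difference of 0.40 ± 0.24 on the log2 scale was not called (limma adjusted p = 0.219). A weaker HOXC4 probe was detected on all 6 eSLC arrays (11.1 to 16.5) and on neither SC array (-1.10 and -0.89), and its difference of 0.10 is set by the floor, to which low values were raised.

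**Figure D2:**
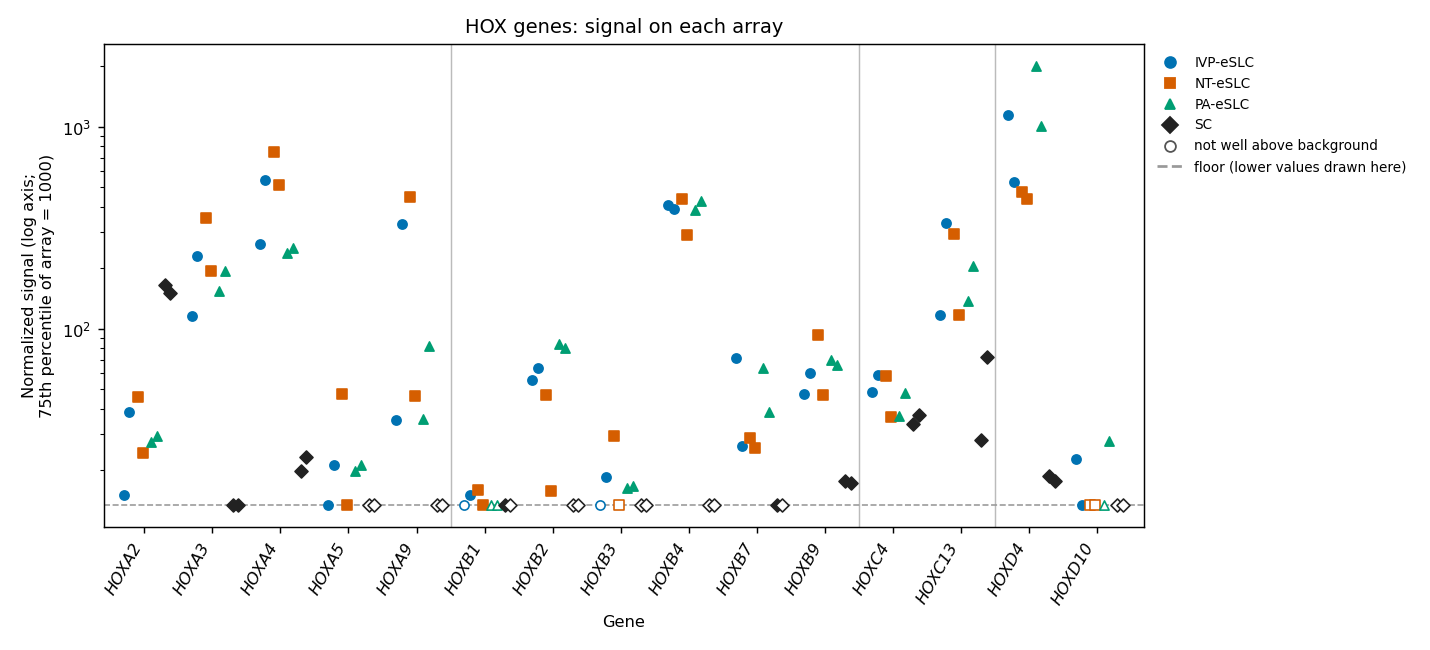
Normalized signal (log axis) of the 15 tested HOX genes on each of the 8 arrays, by cluster and number, with open symbols where the spot was not well above background and values under the floor of 13.3 drawn at it. HOXD4, HOXB4 and HOXA4 lie well apart in eSLCs and SCs, and HOXA2 is the only one of these genes with both SC arrays above all 6 eSLC arrays.

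The anterior genes were not uniform. HOXA2, which patterns the second branchial arch, had 14.9 and 38.8 in I2 and I9, 24.1 in N7 and 45.9 in N2, 27.5 and 29.4 in P1 and P4, and 163 and 150 on the SC arrays. Every eSLC array was below both SC arrays, and the gene was lower in eSLCs by a log2 difference of -2.47 ± 0.42 (SE, limma, adjusted p = 0.0048); without SC P5 or SC P10 the difference was -2.41 or -2.53 and the adjusted p 0.0676 or 0.0573, so that the call was lost. Its neighbour in number, HOXA3, a gene of the branchial arches behind it, went the opposite way, with 115 and 228 in I2 and I9, 353 and 193 in N2 and N7, 154 and 192 in P1 and P4, and 9.87 and 12.1 on the SC arrays. The difference of 3.87 ± 0.35 (SE, limma, adjusted p = 0.000418) rests on the brightest of its 3 probes. Another was detected on all 6 eSLC arrays (13.6 to 40.8) and neither SC array (-0.04 and -0.45), and its log2 difference of 0.69 is set by the floor. A further one, detected on 2 arrays, gave 0.00.

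HOXB2, chosen for mention after its values were seen, had 15.6 to 83.5 in eSLCs (median 59.8) by its brightest probe, which stayed near background in SCs (4.60 and 6.36, not detected). By that probe it was at least 6.03-fold higher in eSLCs (limma adjusted p = 0.0101). A weaker second probe, detected on all 8 arrays, differed by -0.53 on the log2 scale, so the 2 probes disagree. The call was lost without SC P5 (adjusted p = 0.0958) and without SC P10 (0.0914). HOXB1 and HOXB3, the remaining anterior genes, had log2 differences of 0.07 ± 0.15 and 0.37 ± 0.32 (SE) and were not called.

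Among the posterior genes, which act in the trunk, limbs and tail, HOXB9 had 47.0 to 92.9 in eSLCs (median 63.4) and 17.7 and 17.2 on the SC arrays. Its difference was 1.84 ± 0.28 (SE, log2, limma, adjusted p = 0.00328), with every eSLC array above both SC arrays. HOXC13, a gene of hair and nail, had 116 to 331 in eSLCs (median 169.9) and 28.0 and 72.4 in SCs. The arrays did not overlap either, and the difference was 2.02 ± 0.61 (SE, log2, limma, adjusted p = 0.037), but the 2 SC arrays were over 2-fold apart. With low values raised to the floor, that held for 1 tested member in all, HOXC13, and for 335 of the 10958 genes. A second HOXC13 probe, detected on all 8 arrays, gave 0.14, and the call was lost when any 1 of 6 arrays (I9, N2, P1, P4, SC P5 and SC P10) was left out, with adjusted p up to 0.292.

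HOXA9, a gene of the trunk and of blood progenitors, varied widely among the lines. Its signal was 35.3 in I2 and 329 in I9, 449 in N2 and 46.5 in N7, 35.7 in P1 and 81.5 in P4, and not well above background on the SC arrays (6.21 and 5.95). All eSLC arrays were above both SC arrays, and the gene was at least 11.2-fold higher in eSLCs. Its log2 difference of 2.83 ± 1.13 (SE), computed with SC values at the floor, understates this distance and was not called (limma adjusted p = 0.0858). Without N7 the log2 difference was 3.37. A weaker probe, detected on 5 eSLC arrays and neither SC array, gave 0.94, with SC values at the floor. HOXB7, chosen for mention after its values were seen, had 25.5 to 71.4 in eSLCs (median 33.5) and 10.7 and 3.92 in SCs, with a log2 difference of 1.54 ± 0.41 (SE, limma, adjusted p = 0.0245). That call was lost without N2, P1, SC P5 or SC P10, with adjusted p up to 0.156.

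The remaining tested HOX genes were weak. HOXA5 had 10.6 to 47.2 in eSLCs, and the rule for bounds gave 2.42-fold higher there. This is not a strict bound, since eSLC signals under 13.3 were raised to that floor. Its log2 difference of 0.62 ± 0.48 (SE), computed with SC values at the floor, can understate the distance and was not called (limma adjusted p = 0.324). HOXD10 was detected in I2, I9 and P4 and in no other sample, with a log2 difference of 0.30 ± 0.34 that was not called. HOXA10 and HOXD12 had signals of at most 25.1 and 13.4, were detected in some eSLC lines and in neither SC array, and could not be tested.

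The tested HOXA genes ranked the lines in a similar way. N2 had the highest signal and I9 the second highest for all 5 tested HOXA genes (HOXA2, HOXA3, HOXA4, HOXA5 and HOXA9). The second place was close for HOXA5 (21.1 in I9, 21.0 in P4 and 19.8 in P1) and for HOXA4 (544 in I9 and 512 in N7). N2 is an NT line and I9 an IVP line, and they were hybridized on different slides. The part of origin and slide in this order was not tested. The untested HOXA10 lay outside this order, with 25.1 in P4, 15.6 in N2 and 13.4 in I9. Over 10707 genes tested that varied among the lines, N2 was highest and I9 second for 8.61%. Over the 15 HOX genes the count was 7, and 5 of these 7 share the HOXA cluster. The same 2 lines were also the highest for 9 of 44 cell type markers, among them 3 of 9 trophectoderm, 2 of 5 skin epithelium and 2 of 9 fibroblast markers. TFAP2A, a trophectoderm marker that was not called higher in eSLCs (9013 and 9771 on the SC arrays), had 11981 in N2 and 8941 in I9 against 2753 to 5061 in the other lines. Other trophectoderm markers went the other way. Of the 6 lines, I9 was the lowest for CDX2 (5183), and N2 the lowest for TFAP2C (9294) and ELF5 (759). KRT5, a skin epithelium marker, had 499 and 463 in N2 and I9 against 32.7 to 139.7. The summed trophectoderm markers were 1136942 in N2 and 622659 in I9 against 374168 to 1016463, and the summed fibroblast markers 10447 and 10750 against 5478 to 8939. Their part in this order was not tested. No p-value is given for this order, since genes of 1 cluster are not independent and the pattern was noticed in the same data. N7 was the lowest line for 4 of 6 tested HOXB genes and for 26 of 54 members that varied (48.1%), where it was the lowest for 27.2% of all genes.

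**Figure D3:**
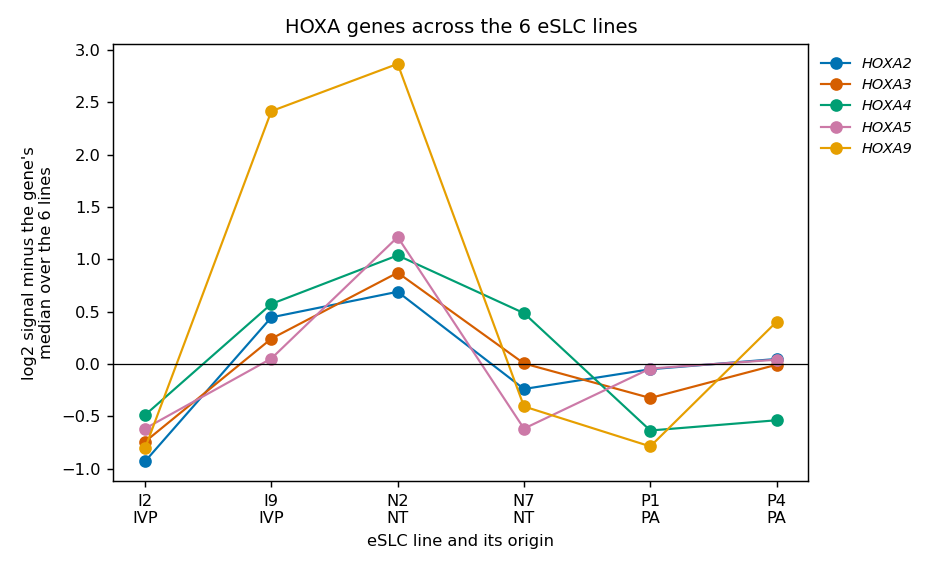
The log2 signal of the 5 tested HOXA genes in each eSLC line, relative to the gene's own median over the 6 lines (signals under the floor of 13.3 raised to it). N2 is the highest line for each gene and I9 the second, and the spread is widest for HOXA9.

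The DLX genes, homologs of the fly Distal-less gene that act in the branchial arches, limbs and placenta, were split. DLX5 had 1306 and 4348 in I2 and I9, 4739 and 1960 in N2 and N7, 1173 and 1164 in P1 and P4, and 27.2 and 34.2 on the SC arrays. Its difference of 6.06 ± 0.53 on the log2 scale (SE, limma, adjusted p = 0.00039) exceeded the spread among lines, and the same 2 lines, N2 and I9, were the brightest. DLX4 had 36.3 to 56.8 in eSLCs (median 46.7), did not rise well above background in SCs (2.41 and 3.24) and was at least 5.41-fold higher in eSLCs (limma adjusted p = 0.000629). DLX3, a gene needed in the placenta and chosen for mention after its values were seen, lies next to DLX4 in the genome and had 744 to 1331 in eSLCs (median 892) and 308 and 286 in SCs (log2 difference 1.66 ± 0.24, limma adjusted p = 0.00282; second probe 3.47).

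DLX1 went the other way by its brightest probe. That probe had 494 and 606 on the SC arrays and 2.22 to 7.88 in eSLCs, where it was not well above background on any array. By it DLX1 was at least 54.7-fold lower in eSLCs (limma adjusted p = 6.66e-06). All eSLC values were put at the floor for this p-value, which thus holds no spread among the lines and can be too small. A second DLX1 probe, detected but weak on all 8 arrays (12.1 to 26.6), gave 0.61 on the log2 scale, so the fall rests on 1 probe. DLX2, its neighbour, was detected on I9 alone and was not tested.

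The LIM homeobox genes that could be tested all rose. LHX2, a factor of forebrain, eye and hair follicle stem cells, had 2706 and 994 in I2 and I9, 1072 and 931 in N2 and N7, 2157 and 1605 in P1 and P4, and 13.6 and 11.5 on the SC arrays. The difference was 6.76 ± 0.38 on the log2 scale (SE, limma, adjusted p = 7.19e-05), the largest fitted difference among the 57 tested members. LHX1, needed for head formation and kidney, had 92.2 to 284 in eSLCs (median 179) and 10.2 and 8.92 in SCs (log2 difference 3.62 ± 0.22, limma adjusted p = 0.000102). LHX3, a pituitary and motor neuron factor chosen for mention after its values were seen, had 43.6 to 86.6 in eSLCs (median 77.7) and 17.2 and 19.5 in SCs (1.96 ± 0.22, limma adjusted p = 0.000961). The other probes of LHX1 and LHX3 were detected on no array, and the remaining 4 LHX genes were not detected.

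**Figure D4:**
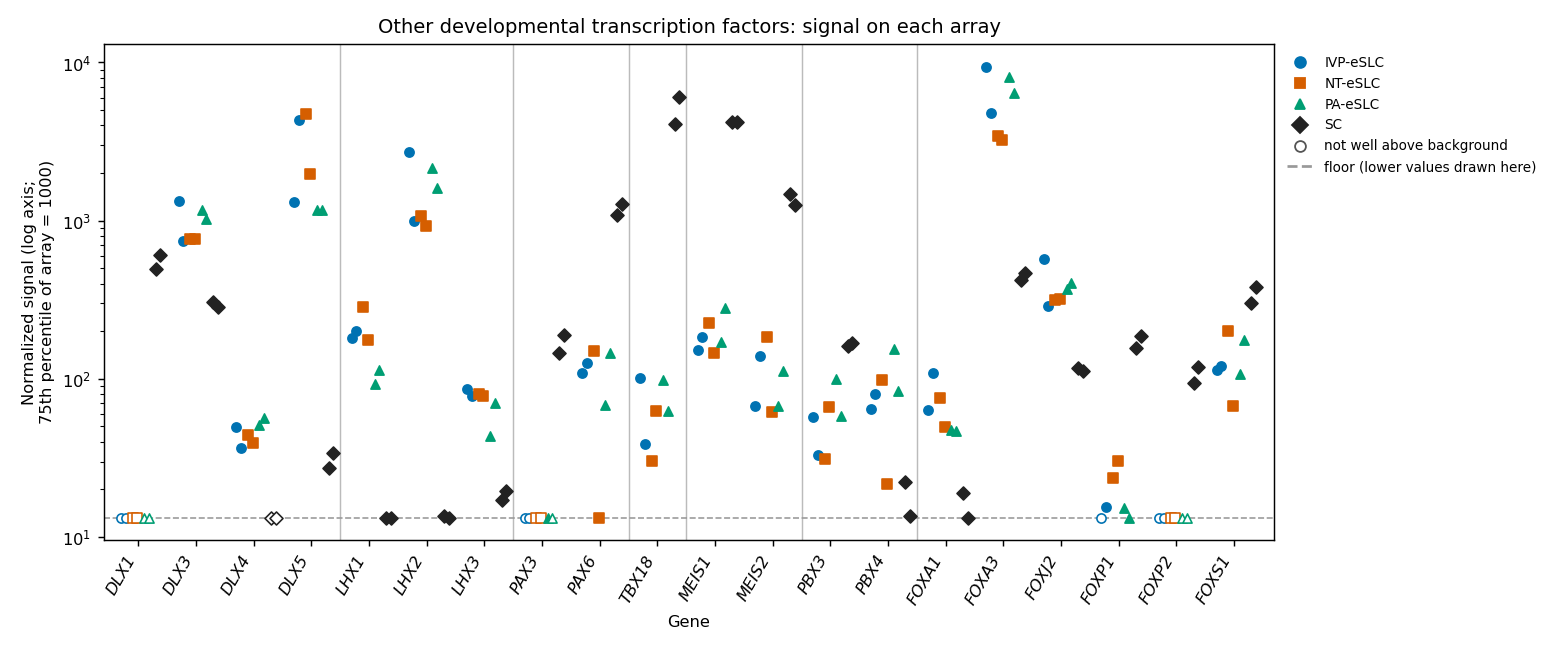
Normalized signal (log axis) of called members outside the HOX clusters on each of the 8 arrays, with open symbols where the spot was not well above background and values under the floor of 13.3 drawn at it. DLX5, LHX2 and FOXA3 lie higher in every eSLC array, and DLX1, TBX18, MEIS1 and MEIS2 lie higher in both SC arrays.

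The largest falls were in TBX18, MEIS1, MEIS2, PAX3 and PAX6 beside DLX1. TBX18, a T-box factor of somites, heart and other mesenchyme, had 101 and 38.8 in I2 and I9, 30.2 and 62.9 in N2 and N7, 98.2 and 62.5 in P1 and P4, and 4078 and 6007 on the SC arrays. The log2 difference of -6.37 ± 0.48 (SE, limma, adjusted p = 0.000213) was far outside the spread of either group, and a second probe gave -6.88. The other 3 tested TBX genes, TBX4, TBX19 and TBX21, had log2 differences of 0.21, 0.03 and 0.28 and were not called. TBX5, an undetected member, and TBX2 and TBX20, seen on 1 array each, could not be tested.

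MEIS1 and MEIS2, whose proteins bind DNA with HOX and PBX proteins, were high in SCs. MEIS1 had 153 and 184 in I2 and I9, 225 and 146 in N2 and N7, 170 and 282 in P1 and P4, and 4186 and 4188 on the SC arrays (log2 difference -4.47 ± 0.27, SE, limma, adjusted p = 9.2e-05). Its other 3 probes gave -5.28, -3.93 and -1.93. MEIS2 had 61.9 to 184 in eSLCs (median 90.1) and 1477 and 1264 in SCs (-3.82 ± 0.50, limma adjusted p = 0.00183), with N2 and I9 again the highest lines. Its other 2 probes gave -4.57 and -2.64. MEIS3 was not called. It had 10.3 to 105 in eSLCs and 46.5 and 57.3 in SCs, a log2 difference of -0.14 ± 0.53 (limma adjusted p = 0.842).

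The PBX genes did not move as 1 group. PBX3 had 31.2 to 99.2 in eSLCs (median 57.8) and 162 and 169 in SCs (log2 difference -1.64 ± 0.39, SE, limma adjusted p = 0.0171; 0.122 and 0.127 without SC P5 and SC P10). PBX4 was higher in eSLCs, with 21.7 to 155 (median 82.0) against 22.4 and 13.7, but N7 overlapped with SC P5. Its log2 difference of 2.05 ± 0.60 (limma adjusted p = 0.0341) was no longer called when any 1 of the IVP, PA or SC arrays was left out, with adjusted p up to 0.239. PBX2 had 632 and 691 in SCs and 852 to 1835 in eSLCs, and its log2 difference of 0.73 ± 0.28 was not called (limma adjusted p = 0.0731).

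Of the paired box genes, PAX3, a regulator of neural crest and muscle precursors, had 145 and 188 on the SC arrays and was detected in 1 eSLC line, P1 (13.2). The log2 difference of -3.64 ± 0.16 (SE, limma, adjusted p = 2.7e-05), computed with eSLC values at the floor, understates the distance. With all eSLC values at the floor, the SE and p-value hold no spread among the lines and can be too small. PAX6, a regulator of eye, brain and pancreas, had 109 and 126 in I2 and I9, 151 in N2 and 12.1 in N7, 68.0 and 145 in P1 and P4, and 1086 and 1278 on the SC arrays. All lines were below both SC arrays by a log2 difference of -3.87 ± 0.88 (SE, limma, adjusted p = 0.0145), and the call was lost without SC P5 (-3.99, adjusted p = 0.117) and without SC P10 (-3.76, adjusted p = 0.127). Its other 2 probes, detected on the SC arrays alone, gave -1.58 and -0.95, with eSLC values at the floor. PAX9, a factor of the pharyngeal pouches and teeth, was detected on 5 of 6 eSLC arrays and neither SC array and was not called (log2 difference 0.62 ± 0.33, limma adjusted p = 0.171).

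The sine oculis family, homeobox factors of sensory organs and kidney, gave 0 calls by limma among 4 tested genes for all eSLCs against SCs, while 2 of the 4 passed an unadjusted p under 0.05, as 54.9% of all genes did. SIX5 had 396 to 487 in eSLCs and 292 and 263 in SCs, and its difference of 0.63 ± 0.14 on the log2 scale was under 2-fold (limma adjusted p = 0.0153). SIX3, a forebrain and eye factor, was detected in 5 of 6 lines and in neither SC array and differed by 1.07 ± 0.39 (limma adjusted p = 0.0662). In IVP-eSLCs alone against SCs it was called higher, by 1.54 ± 0.48 (limma adjusted p = 0.0485). Both SIX3 differences were computed with SC values at the floor and can understate the distance. The rule for bounds gave 3.31-fold higher for all eSLCs, with eSLC signals under 13.3 raised to that floor. SIX2 and SIX6 had log2 differences of -0.30 ± 0.27 and 0.07 ± 0.49.

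Of the 17 tested forkhead genes, 3 were called higher and 3 lower, where 19.7% and 15.7% of all genes were, and 11 were not called. FOXA3 and FOXA1, factors that open chromatin in liver, gut and lung, were higher in eSLCs. FOXA3 had 3235 to 9426 (median 5590) against 419 and 468 (log2 difference 3.62 ± 0.28, SE, limma, adjusted p = 0.000239), and its second probe gave 2.00. FOXA1 had 46.6 to 109.7 (median 56.9) against 19.1 and 10.5 (1.97 ± 0.29, limma adjusted p = 0.00305; second probe 0.60). FOXJ2 had 290 to 571 (median 343) against 117 and 113 (1.68 ± 0.27, limma adjusted p = 0.00391), while its other 2 probes, detected on 4 arrays and 1 array, gave 0.04 and 0.00.

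FOXP1 and FOXP2, repressors of the FOXP group, and FOXS1, a gene of neural crest and perivascular cells, were lower in eSLCs. FOXP1 had 8.32 to 30.3 in eSLCs (median 15.4) and 156 and 186 in SCs (log2 difference -3.27 ± 0.18, SE, limma, adjusted p = 6.84e-05), and its 2 weaker probes gave -0.66 and -0.64. FOXP2 was not well above background on any eSLC array, had 94.0 and 118 in SCs and was at least 10.5-fold lower in eSLCs (limma adjusted p = 4.79e-05). Its eSLC values were all put at the floor, so this p-value holds no spread among the lines. FOXS1 had 67.0 to 199.7 in eSLCs (median 117) and 302 and 379 in SCs (-1.46 ± 0.44, limma adjusted p = 0.0367), and the call was lost without any 1 of the IVP, PA or SC arrays, with adjusted p up to 0.224. FOXP4, of the same group, had 79.1 to 105 in eSLCs and 153 and 127 in SCs, and passed the adjusted p (0.0181, limma) but not the 2-fold difference (-0.64 ± 0.16). The other 10 forkhead genes tested and not called had log2 differences from -0.56 (FOXO4) to 0.77 (FOXJ1), and FOXE3, FOXN4 and FOXP3 could not be tested. In IVP-eSLCs alone against SCs FOXJ1 was called higher, by 1.57 ± 0.44 (limma adjusted p = 0.0357). The falls of the mesenchymal factors stand beside the summed fibroblast markers, which were 507218 and 606453 on the SC arrays and at most 10750 on the eSLC arrays, and their part was not tested.

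Each origin was also set against SCs, and these comparisons share the 2 SC arrays. In IVP-eSLCs 18 members were called higher and 10 lower, where 17.7% and 14.6% of all genes were. In NT-eSLCs 14 were higher and 11 lower, where 15.8% and 13.9% of all genes were, and in PA-eSLCs 17 were higher and 10 lower, where 20.3% and 14.9% were. Without SC P5 the calls were 13 and 6 in IVP-, 11 and 7 in NT- and 11 and 6 in PA-eSLCs, and without SC P10 they were 11 and 6, 10 and 7, and 11 and 7. Of the HOX genes 7, 5 and 7 were called higher and 1 lower in IVP-, NT- and PA-eSLCs. HOXD4 differed from SCs by 5.44, 4.67 and 6.30 on the log2 scale in IVP-, NT- and PA-eSLCs, and HOXA4 by 4.14, 4.86 and 3.51. For HOXB4, undetected in SCs, the differences were 4.91, 4.74 and 4.93. They were computed with SC values at the floor and understate the distance. In all 3 origins 14 members were called higher, among them HOXA3, HOXA4, HOXB4, HOXB9, HOXD4, DLX5, LHX2 and FOXA3, and 9 were called lower, among them HOXA2, DLX1, PAX3, TBX18, MEIS1, MEIS2, FOXP1 and FOXP2. Of all genes tested, 13.5% were called higher in all 3 origins and 11.6% lower, and nothing is read from these overlaps, since the comparisons share both SC arrays. HOXB2 and HOXB7, called in IVP- and PA-eSLCs, had log2 differences of 1.02 and 1.02 in NT-eSLCs that were not called; whether the origins differ for them is given by the next comparisons.

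**Figure D5:**
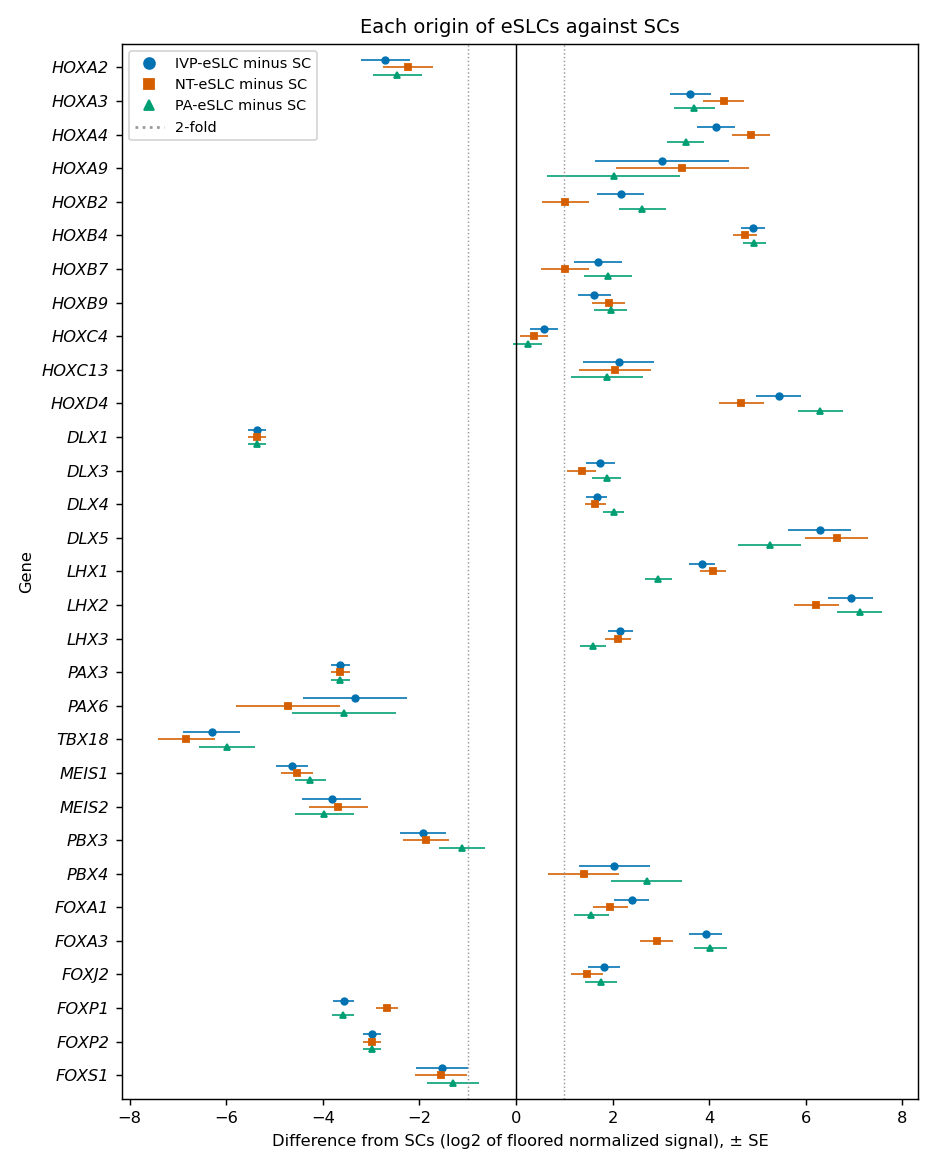
Difference of IVP-, NT- and PA-eSLCs from SCs (log2 of the normalized signal, with standard errors from limma) for the HOX genes and other members drawn, with dotted lines at 2-fold. The 3 origins lie on the same side of 0 for each gene drawn.

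Set against IVP-eSLCs, neither NT-eSLCs nor PA-eSLCs differed in a called member by limma (0 of 57 in both, and 0.0% of all genes). At an unadjusted p under 0.05, 6 of 57 members passed between NT- and IVP-eSLCs, where 2.79% of all genes did, and 3 passed between PA- and IVP-eSLCs, where 5.18% did. The methods' t-test, adjusted, also called 0 members in both. Among the 6 were FOXP1, FOXA3, FOXJ1, FOXN1 and MEIS3, and none was a HOX gene. FOXP1 was higher in the NT lines (23.5 and 30.3) than in the IVP lines (8.32 and 15.5), by 0.90 ± 0.22 (limma, unadjusted p = 0.00725). Between PA- and IVP-eSLCs the 3 were LHX1, FOXJ1 and TBX21, with log2 differences of -0.90, -1.08 and -0.68. Both IVP lines were hybridized on slide 1 and both PA lines on slide 2, so no slide holds both origins and the slide cannot be told apart from the origin by these lines alone. With the slide as a block, whose effect then comes from the NT lines (N7 on slide 1, N2 on slide 2) and the SC arrays, 1 of 57 members passed the unadjusted p between PA- and IVP-eSLCs (LHX1, -1.24 ± 0.36, limma), as did 2.36% of all genes. Between NT- and IVP-eSLCs 5 passed with that block, as did 3.59% of all genes, and HOXB2 was then among them (-1.54 ± 0.45, limma, unadjusted p = 0.019). Without N2, with N7 as the lone NT array, HOXB2 differed by -1.93 on the log2 scale between NT- and IVP-eSLCs. Whether such differences recur in other lines of these origins was not tested.

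The genes that control HOX expression were described from fixed lists. Of 21 Polycomb and trithorax genes tested, whose products repress or maintain HOX transcription, 3 were called higher in eSLCs (SUZ12, WDR5 and DPY30), 2 lower (PHC1 and PHC2) and 16 neither, with a median of 0.50 on the log2 scale. These are 14.3% higher and 9.52% lower, where 19.7% and 15.7% of all genes tested were called. SUZ12, a core subunit of the H3K27 methylating complex, differed by 1.05 ± 0.20 (limma adjusted p = 0.0071), and EZH2, the enzyme of that complex, by 0.27 ± 0.42 (limma adjusted p = 0.627). PHC1 and PHC2, subunits of the other Polycomb complex, differed by -1.25 ± 0.33 and -1.29 ± 0.30 (limma adjusted p = 0.0236 and 0.0156). The called differences of this list were all between 2-fold and 3-fold.

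Retinoic acid and the CDX factors switch on HOX genes in the embryo. Of 13 such genes tested, 2 were called higher in eSLCs and 4 lower, where 19.7% and 15.7% of all genes were, and the median was 0.02. CYP26A1, the enzyme that degrades retinoic acid, had 695 to 4176 in eSLCs, with N7 the highest, was undetected on both SC arrays, and was at least 145-fold higher (limma adjusted p = 0.000644). CDX2 had 5183 to 14887 in eSLCs, was undetected on both SC arrays and was at least 1064-fold higher (limma adjusted p = 7.67e-06), while CDX1 was detected on 2 eSLC arrays and differed by 0.02. The genes called lower were RARG (-1.63 ± 0.37), a receptor, ALDH1A1 (-9.24 ± 1.18), a synthesizing enzyme, and the binding proteins CRABP1 (-6.13 ± 0.42) and CRABP2 (-4.38 ± 0.41). By its brightest probe ALDH1A1 had 14881 and 13508 in SCs and was detected in 1 eSLC line, N7, at 409.

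Of 15 tested partners and cofactors of the member proteins, 5 were called higher (LMO1, TLE1, EYA3, PBXIP1 and TLE3), 1 lower (LMO4) and 9 neither, with a median of 0.76. Of all genes tested, 19.7% were called higher and 15.7% lower. LMO1, which binds the LIM cofactor that LHX proteins use, had 4114 to 6670 in eSLCs and 3.59 and 15.2 in SCs, a log2 difference of 8.63 ± 0.22 (limma adjusted p = 5.41e-06), and LMO4 had 974 to 4816 in eSLCs and 7682 and 8188 in SCs (limma adjusted p = 0.0116). PBXIP1, which binds PBX proteins, differed by 1.52 ± 0.18, and TLE1, a co-repressor recruited by several member families, by 2.79 ± 0.27. Of 20 other mesenchymal patterning factors tested, 12 were called lower in eSLCs and 2 higher, where 15.7% and 19.7% of all genes were, with a median of -1.64. PRRX1, a factor of limb and connective tissue, fell by 7.74 on the log2 scale, TWIST2 by 5.99, TWIST1 by 5.56 and SHOX2 by 3.75, while IRX4 was at least 86.4-fold higher and IRX3 differed by 1.09. The SC arrays, where the genes that fell were high, also held the higher fibroblast markers, whose part in this list was not tested.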

How the data were processed

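The authors scanned the arrays with Agilent Feature Extraction (version 11.5.1.1) and deposited linear intensities for 45220 spots per array, with no normalization between arrays. The intensities of the deposited series matrix were normalized by the authors with GeneSpring GX in steps the methods do not give (column medians 119 to 501; scale linear, centring unknown). The deposited processed signal followed the background-subtracted signal in I2 and N2 (Spearman 0.973 and 0.971 over spots) and not in the other 6 files (0.159 to 0.215), so the background-subtracted signal was used.

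Control spots and 1 to 11 outlier spots per array were left out, which left 43653 probes (0 spots were saturated), of which 26743 matched RefSeq symbols (the table is of another assembly than the array's, so no coordinates are given). The brightest probe of a gene was used, by mean log2 signal. Signals were scaled to the 75th percentile of the array (1192 to 4092 scanner units, a factor of 75.3 to 136 over the dimmest detected spot), set to 1000; values under 13.3 were then put at that floor, before log2. limma (version 3.58.1, R 4.3.3; lmFit, eBayes) fitted a mean per group over all 8 arrays, with the eSLC value as the mean of the 3 origins. Folds "at least" were given for genes with a printed difference where a group was not well above background on any array. For HOXB3, HOXD10, PAX9, SIX3 and CDX1 the same rule gave 2.04-, 1.94-, 2.43-, 3.31- and 1.60-fold higher in eSLCs. These folds are not strict bounds, since eSLC signals under 13.3 were raised to that floor before averaging. CDX1 had 4.22 to 14.3 in eSLCs, so its fold is set mostly by the floor. The log2 differences of such genes and probes, with low values put at the floor, can understate the distance. Where all arrays of a group lay at the floor, their spread was set to 0, so the SE and p-value can be too small. That holds for PAX3, DLX1 and FOXP2 in eSLCs and for HOXB4 and others in SCs. Figures were drawn with matplotlib 3.10.9 (Python 3.11.15).

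On simulated data with 10950 genes, 200 of them changed 4-fold, the fit recovered 58.5% for eSLCs against SCs, 48, 60.5 and 53.5% for IVP-, NT- and PA-eSLCs against SCs, and 52 and 50% for NT- and PA- against IVP-eSLCs, with 0 wrong signs.

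The members and lists were chosen with earlier results of these data known. Genes named with values were HOX genes that were detected and bright in SCs (at most 14) or eSLCs (at most 6), the called genes with the largest rise and fall in each other family (2 each way; 5 for FOX), members with 1 line 4-fold above the others (0 met this), and members named in the study's text. FOXO1, the 1 such member, had no named probe. Alternatives were other signals, scalings, filters, floors, probe rules, fits and tests, and each array left out. The planned normexp correction could not be run, since the files hold no mean signal; it was run on the median signal instead, an alternative added after the files were seen. Some genes are not reported here.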

Additional observations from a re-analysis of the deposited data

Results flagged for a closer look

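Among 45 members detected by their brightest probe in all 6 eSLC lines, 7 had 1 line far from the other 5 by the gap to the nearest line over the whole range of log2 signals with low values raised to the floor of 13.3, and chance gives such a line in about 1 of 20 groups. N7 was the line in 4 of the 7. The signal of PAX6 was 12.1 in N7 and 68.0 to 151 in the other lines. The signal of HOXB2 was 15.6 in N7 and 46.6 to 83.5 in the others, that of HOXB4 was 289 against 385 to 438, and that of FOXO4 was 369 against 903 to 1360. In P1 the signal of LHX3 was 43.6, with 70.2 to 86.6 in the other lines, and that of FOXL2 was 19.7, with 9.97 to 14.2. HOXA5 was at 47.2 in N2 and 10.6 to 21.1 elsewhere. FOXL2 and HOXA5 stood apart only with the floor: on log2 signals not raised to it, an alternative chosen after seeing the data, their gaps were 0.481 and 0.537 of the range, and the other 5 genes still stood apart. N7 was also above the other 5 lines in 4 of 7 endoderm markers, and the part of such cells in its low signals was not tested.

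MEIS3 lay above both SC arrays in the IVP lines (83.9 and 59.4 against 46.5 and 57.3) and below both in the NT lines (38.3 and 10.3), a distance between the origins of 1.65 on the log2 scale. It was singled out by the order of the arrays. limma gave an unadjusted p of 0.0436 for NT against IVP, and the gene was not called.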

How the results depend on the processing

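Median and quantile scaling, the slide as a block and each slide alone kept the direction of all 32 named genes, and the median of all genes moved from 0.23 to between 0.06 and 0.19 (log2) under other scalings and values. Calls of eSLCs against SCs were 18 higher and 12 lower (HOX 8 and 1), and moved over 1.5-fold as follows. The processed signal, out of step in 6 files, gave 2 and 2 (HOX 1 and 0), 1, 1 and 1 higher and 0 lower in IVP-, NT- and PA-eSLCs, and turned HOXC4 (-1.10), HOXD4 (-1.91), HOXA9 (-0.71), HOXB2 (-0.56) and FOXP2 (0.48); the cause was not tested. The authors' values gave 11 higher (9, 7 and 11 in IVP-, NT- and PA-eSLCs). The calls of DLX3, FOXA1, FOXA3, FOXJ2, FOXS1, HOXB7, HOXB9, PBX3 and PBX4 were lost with them. In these values SC P5 and SC P10 lie within 3% for 23.4% of probes, against 7.25% for the scanner signals. A 4-fold higher floor gave 10 higher (HOX 4, and 9 in IVP- and 9 in PA-eSLCs). Normexp, chosen after seeing the data, gave 10 (HOX 4, and 10 in IVP-eSLCs). Both lost the calls of DLX4, FOXA1, HOXB2, HOXB7, HOXB9, HOXC13, LHX3 and PBX4, and the higher floor also those of FOXP2 and FOXS1. The mean of probes lost the calls of FOXJ2, HOXB2 and LHX3. With all 8 arrays detected, which tests fewer genes, HOX gave 5 higher, NT 7 lower and PA 6 lower. With the SC arrays as 1 sample, HOX gave 5 higher and 0 lower, IVP 11 and 6, NT 7 lower and PA 11 higher. The methods' t-test, adjusted, gave IVP 4 and 6 and NT 5 and 1.

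Leaving out each array gave 14 to 20 higher and 7 to 12 lower (HOX 5 to 9 and 0 to 1), IVP 11 to 18 and 6 to 12, NT 10 to 17 and 7 to 12, PA 11 to 17 and 6 to 11, NT against IVP 0 to 1 and PA against IVP 0. The low ends against SCs came without SC P5 or SC P10. No paired analysis was possible because the labels give every sample the replicate number 1; the slide was fitted as a block instead. Genes near the floor have folds that depend on it, and a gene below background is not shown to be absent.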
